A study of Mus musculus with 12 samples.

Results

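Receptors and transcription factors keep naive CD4+ T cells naive and in circulation between blood and lymph nodes. Of such genes 9 were followed here in all 12 mice of the series. They were chosen by name, but with earlier results of these data known: Ccr7, Lef1, Tcf7, Klf2, S1pr1, Satb1, Foxp1, Foxo1 and Bach2. All 9 were found among the 35275 genes of the deposited table, and all 9 were among the 13115 genes tested, whose mean reached 0.5 FPKM (fragments relative to the length of the transcript and to the depth of the library). RNA-Seq was carried out on CD4+ T cells of female mice, isolated by negative magnetic sorting, with 3 mice in each of 4 groups. The B6 mice were C57BL/6J, and the SLE123 mice were B6 congenic mice in which Sle1, Sle2 and Sle3, regions from NZM2410 mice that raise the risk of lupus, replace their B6 counterparts. Mice of each strain either received 5 injections of 100 μg of the anti-CD45RB antibody MB23G2 over 7 days or were left untreated. All were young, 9 to 12 weeks of age by the study's account of these samples and 9 weeks by its methods. The methods also describe a sort into CD25+ and CD25- cells, and the sample titles name no such fraction.

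CCR7 draws naive T cells into lymph nodes along the chemokines CCL19 and CCL21, and S1PR1 lets them leave again towards sphingosine 1-phosphate in lymph and blood. The transcription factor KLF2 drives S1pr1, and FOXO1, which is active in resting cells, drives Klf2, Ccr7 and Il7r. TCF1 (the product of Tcf7) and LEF1 keep the T cell program and the capacity for self-renewal, SATB1 organises chromatin loops in thymocytes and naive T cells, FOXP1 holds naive T cells in quiescence, and BACH2 represses effector genes such as Prdm1. Most of these genes are switched down when a naive T cell is activated and becomes an effector or memory cell.

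The libraries held 13563594 to 23642755 fragments, and each of the 9 genes was covered by at least 876 fragments in each library (the lowest for Bach2) and by up to 37631 (Tcf7). The cells carried the markers their label asks for: Cd4 stood at 237 to 327 FPKM, Cd3e at 274 to 401 FPKM and Cd8a at no more than 1.92 FPKM. Other genes of CD8 and natural killer cells were present, with Cd8b1 at 3.88 to 17.4 FPKM, Klrd1 at 9.53 to 54.5 FPKM and Nkg7 at 26.5 to 73.4 FPKM. The untreated SLE123 mouse 3 stood apart, with a summed level of the 9 genes of 713 FPKM against 1110 and 1210 FPKM in the other untreated SLE123 mice, the lowest sum of 12 T cell markers of all mice (3650 FPKM) and the highest sums of 9 B cell markers (240 FPKM) and 6 plasma cell markers (27800 FPKM). The treated SLE123 mouse 1 carried the liver transcript Alb at 28.2 FPKM, like the 6 B6 libraries (24.7 to 30.7 FPKM), whereas the other 5 SLE123 libraries had at most 0.0296 FPKM, so that this mark and the strain cannot be told apart among untreated mice. Some values that move by much without these libraries are given without them as well, or as a range with each mouse left out in turn.

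Promoter sequence from RefSeq (GRCm38.p6, the build named mm10 in the submitters' processing notes) was at hand for 7 of the 9 genes. The bases upstream of a RefSeq start are shown for Klf2, the gene that rose with treatment in B6, for Satb1, the gene with the largest difference between untreated strains, and for Lef1 and Bach2, whose windows hold 3 KLF matches and the single TCF/LEF match. The Klf2 stretch is chr8:72318812-72319032 on the plus strand, directly before the annotated transcript. The Lef1 stretch is chr3:131110073-131110322 on the plus strand, inside the antisense gene Gm43352. The Satb1 stretch is chr17:51833291-51833540 on the minus strand, inside the transcript Gm6934 of the other strand. The Bach2 stretch is chr4:32417185-32417434 on the plus strand, before an exon that opens several Bach2 transcripts, and lies inside the Bach2 gene span, since another annotated transcript starts further upstream. Capitals mark matches, on either strand, to a KLF motif (CACCC), a TCF/LEF motif (CTTTGA), a FOXO motif (TGTTTAC) or a CRE core (TGACG).
Klf2: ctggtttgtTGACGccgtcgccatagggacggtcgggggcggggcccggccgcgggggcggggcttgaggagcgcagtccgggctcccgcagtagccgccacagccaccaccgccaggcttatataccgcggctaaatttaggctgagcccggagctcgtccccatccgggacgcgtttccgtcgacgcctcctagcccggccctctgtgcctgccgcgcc
Lef1: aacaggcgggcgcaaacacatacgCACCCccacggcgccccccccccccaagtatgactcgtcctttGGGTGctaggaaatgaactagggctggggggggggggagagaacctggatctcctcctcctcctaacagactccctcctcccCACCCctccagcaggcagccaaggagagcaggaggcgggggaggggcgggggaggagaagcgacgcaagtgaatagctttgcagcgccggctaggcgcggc
Satb1: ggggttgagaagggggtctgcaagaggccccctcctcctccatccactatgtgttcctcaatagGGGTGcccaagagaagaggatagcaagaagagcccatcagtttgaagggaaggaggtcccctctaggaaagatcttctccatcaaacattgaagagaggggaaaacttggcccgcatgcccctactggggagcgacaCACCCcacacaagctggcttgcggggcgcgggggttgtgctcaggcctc
Bach2: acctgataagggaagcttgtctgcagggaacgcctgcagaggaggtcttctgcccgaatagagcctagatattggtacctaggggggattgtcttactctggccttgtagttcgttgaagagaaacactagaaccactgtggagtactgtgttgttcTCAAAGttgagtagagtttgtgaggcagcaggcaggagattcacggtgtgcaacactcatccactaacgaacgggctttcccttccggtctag
The KLF motif was in the 250-base windows of Klf2 (1 match, in the 29 bases that lie within the transcript and are not printed), Lef1 (3), Satb1 (2), Tcf7 (2) and Foxp1 (3), and 52.0% of all 32851 RefSeq windows of that length hold it. The Foxp1 window, like that of Bach2, lies inside the span of its own gene. The TCF/LEF motif was found once, in Bach2, against 13.8% of all windows. The CRE core was found once, in Klf2, against 17.8%. No FOXO motif was found in the 7 windows, and 3.17% of all windows hold it. These matches describe letters only.

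Tcf7 was the most abundant of the 9 genes, with a mean of 661 FPKM over the 12 mice and rank 97 among the tested genes. Klf2 (220 FPKM), Ccr7 (166 FPKM), S1pr1 (137 FPKM), Satb1 (112 FPKM) and Lef1 (110 FPKM) followed, all within the top 4.23% of tested genes. The forkhead genes Foxo1 (64.4 FPKM) and Foxp1 (38.3 FPKM) were lower, and Bach2 was lowest at 11.3 FPKM. For each of the 9 genes every SLE123 mouse was below every B6 mouse. Of all tested genes 29.5% were lower without overlap in untreated SLE123 than in untreated B6, and 27.1% among treated mice. Within B6, Klf2 stood higher and Ccr7 and Tcf7 lower in treated mice without overlap, as did 19.4% and 18.6% of all tested genes, and the ranges of the other 6 genes overlapped. Within SLE123, S1pr1 stood higher without overlap, as did 13.7% of all tested genes, and the ranges of the other 8 overlapped.

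**Figure D1:**
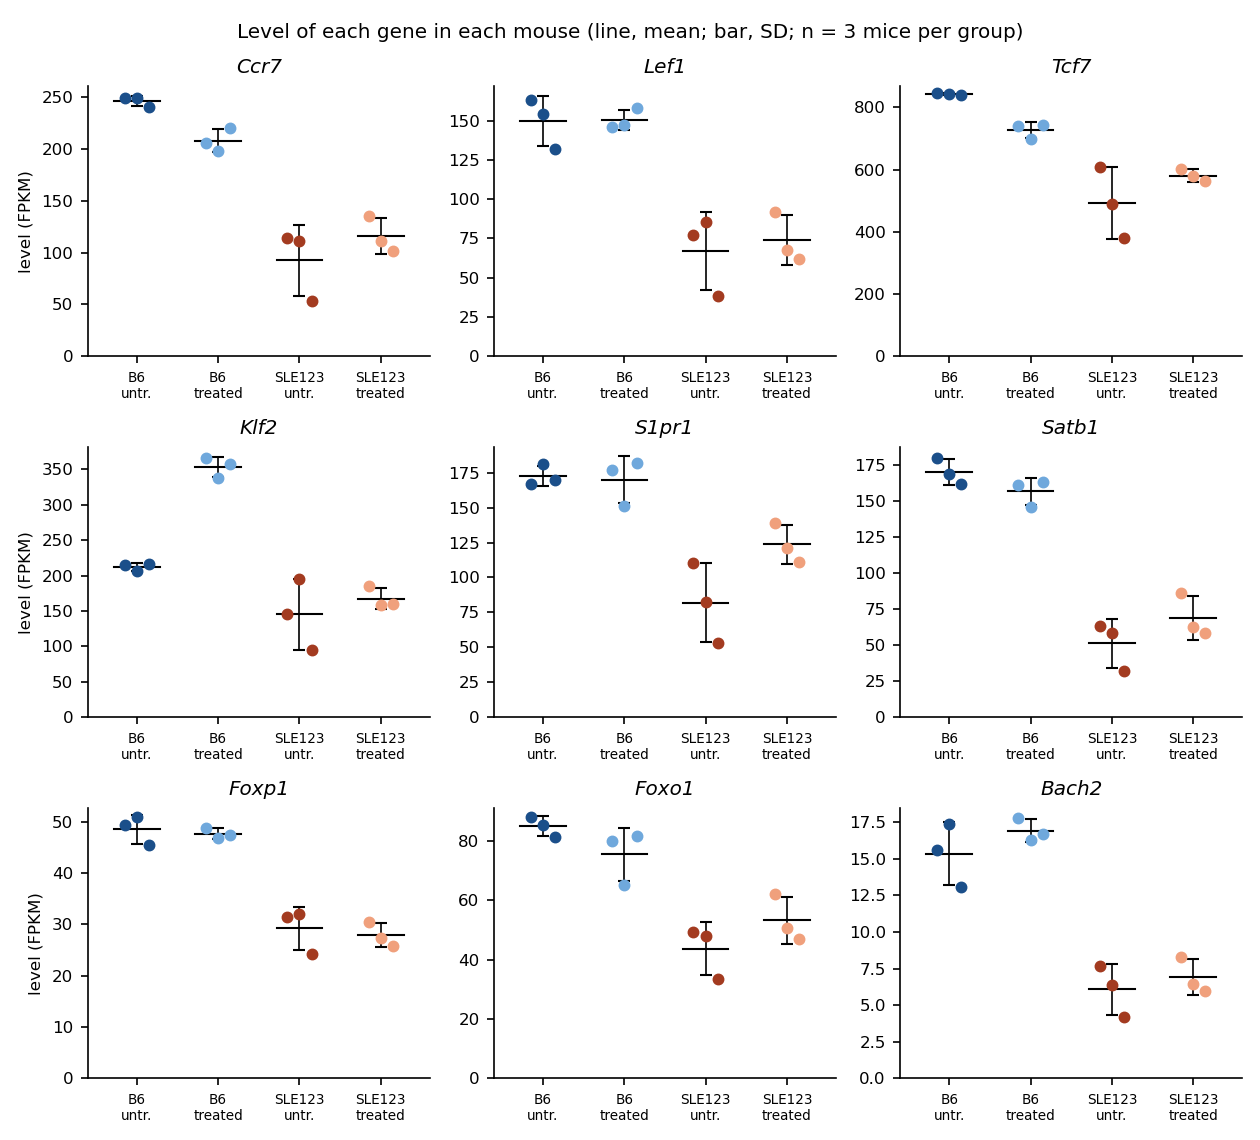
Level of each of the 9 genes (FPKM, axis from 0) in each mouse, with the mean (line) and SD (bar) of the 3 mice of each group. All SLE123 points lie below all B6 points in each panel, and treated B6 mice stand above untreated B6 mice for Klf2 alone, at 338 to 366 against 206 to 216 FPKM.

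Treatment in B6 was examined first, as the response of a healthy strain to the antibody. Klf2 rose, Ccr7 and Tcf7 fell slightly, and the other 6 genes did not pass the test, while 8.74% of all tested genes were called higher and 6.12% lower. Klf2 was at 215, 206 and 216 FPKM in the untreated B6 mice 3, 4 and 5 and at 366, 338 and 357 FPKM in the treated B6 mice 1, 3 and 5. The groups were far apart relative to their SDs of 5.48 and 14.2 FPKM (n = 3 each). Expressed on the log2(FPKM + 1) scale, the rise was 0.73 ± 0.0388 (SE), or 1.66-fold, with a Benjamini-Hochberg adjusted p of 0.000363 in limma. With each mouse left out in turn the value lay between 0.71 and 0.77.

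Ccr7, the lymph-node entry receptor, was at 249, 249 and 241 FPKM in the untreated B6 mice and at 206, 198 and 220 FPKM in the treated ones. All treated mice were below all untreated mice, and the mean was 15.6% lower (log2 fold change -0.24 ± 0.0428, adjusted p = 0.0149). Tcf7 was at 845, 842 and 841 FPKM in the untreated mice and at 740, 697 and 744 FPKM in the treated ones. Here too the groups were separate, with a mean 13.7% lower (log2 fold change -0.21 ± 0.0356, adjusted p = 0.013). The T cell markers also stood lower, with 5 of 12 called lower, none higher, and a summed level of 4450 to 4580 FPKM against 4910 to 5050 FPKM. With libraries centred on these markers, which moves the median of all genes in B6 by 0.107, the change of Tcf7 was -0.10 (adjusted p = 0.0591) and that of Ccr7 -0.13 (adjusted p = 0.045). Without the untreated B6 mouse 3 the adjusted p was 0.0547 for Ccr7 and 0.0509 for Tcf7, and without the untreated B6 mouse 4 it was 0.0627 and 0.0543. With all 12 mice in 1 fit, whose spread includes that of SLE123, it was 0.594 and 0.41, and with no filter on low genes it was 0.0547 for Ccr7.

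Counts of 1 higher and 2 lower among 9 are too small to set these genes apart from the rest as a list. Their median log2 fold change was -0.02, against -0.002 over all tested genes. The genes that did not pass had log2 fold changes of 0.14 (Bach2), 0.01 (Lef1), -0.02 (S1pr1), -0.02 (Foxp1), -0.12 (Satb1) and -0.17 (Foxo1), with adjusted p-values from 0.184 to 0.957. For S1pr1, the egress receptor whose gene KLF2 drives, the 95% interval was -0.19 to 0.15, so a rise of the size seen for Klf2 lies outside it. As in any bulk sample, fewer cells of a type and less RNA per cell cannot be told apart in these values.

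In SLE123 the same treatment moved none of the 9 genes past the threshold, and of all tested genes it raised 0.0152% and lowered 0.0229%, 5 genes in all. S1pr1 came closest, at 110, 82.5 and 53.5 FPKM in the untreated mice 1, 2 and 3 and at 139, 121 and 111 FPKM in the treated mice 1, 2 and 3. The highest untreated mouse was just under the lowest treated mouse. The log2 fold change was 0.64 ± 0.247 with an unadjusted p of 0.0353 in limma and an adjusted p of 0.466, and it was 0.37 without the untreated mouse 3. Klf2 was at 146, 195 and 95.1 FPKM untreated and at 185, 158 and 160 FPKM treated. Its groups overlapped, with a log2 fold change of 0.26 ± 0.245 (95% interval -0.32 to 0.84), which was -0.01 without the untreated mouse 3. For Ccr7 the values were 114, 111 and 53.4 FPKM untreated and 135, 111 and 102 FPKM treated, with a log2 fold change of 0.39 ± 0.289 (adjusted p = 0.593) that was 0.03 without the untreated mouse 3. Tcf7 was at 609, 488 and 379 FPKM untreated and at 601, 579 and 562 FPKM treated. For both genes the treated mice lay within the range of the untreated ones, except mouse 1 for Ccr7, which was above it.

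In limma, 0 of the 9 genes were called, 1 had an unadjusted p under 0.05, and voom on the recovered fragments also called 0. Their median log2 fold change was 0.26, against 0.038 over all tested genes. That median rested on the untreated mouse 3: it was 0.03 without it, and 0.19 without the treated mouse 1. Standard errors were 0.122 to 0.302 in SLE123 and 0.0356 to 0.0975 in B6, so a change of the size of Ccr7 or Tcf7 in B6 was not detectable in SLE123. The remaining 5 genes had log2 fold changes of -0.06 (Foxp1, at 0.13 when rescaled to TPM), 0.18 (Bach2), 0.20 (Lef1), 0.29 (Foxo1) and 0.46 (Satb1). Without the untreated mouse 3 Foxp1 was at -0.18, Bach2 at -0.03, Lef1 at -0.15, Foxo1 at 0.11, Satb1 at 0.15 and Tcf7, at 0.26 with it, at 0.09. Without the treated mouse 1, which carried the liver transcripts, Lef1 was at 0.03, Bach2 at 0.06, Satb1 at 0.29, Foxo1 at 0.18 and Foxp1 at -0.12.

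**Figure D2:**
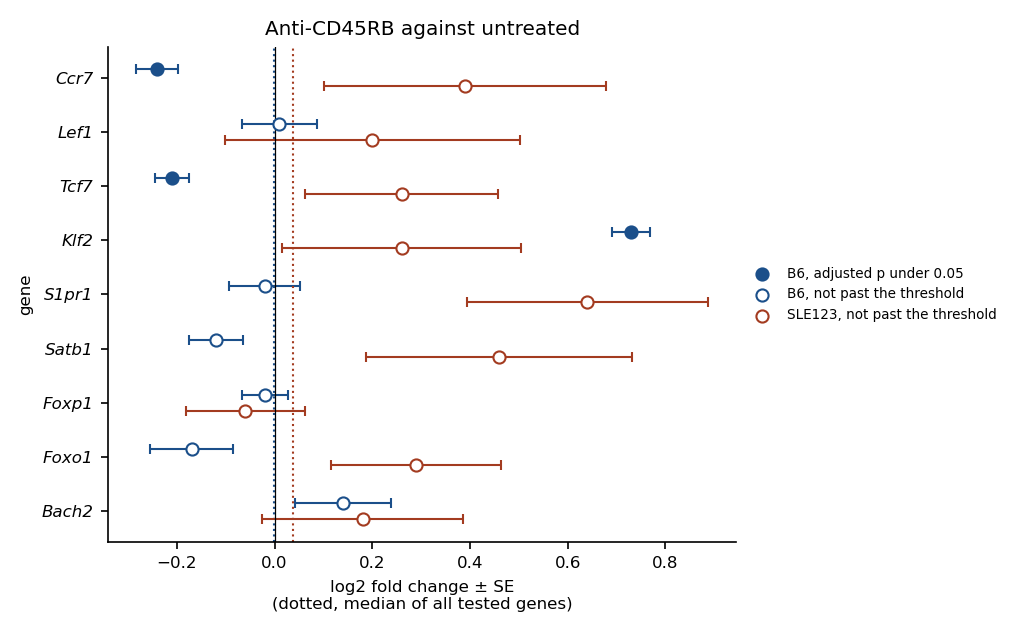
Log2 fold change of treated against untreated mice (horizontal axis, on log2(FPKM + 1), bars ± SE) for each gene in B6 and SLE123, filled where the adjusted p was under 0.05, with dotted lines at the median of all tested genes. Klf2 at 0.73 in B6 stands apart, Ccr7 and Tcf7 are the filled points left of 0, and the SLE123 bars are wider than those of B6.

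Whether the strains answered the antibody differently was tested by the strain-by-treatment interaction, the effect in SLE123 minus that in B6, over all 12 mice. For Klf2 the difference was -0.47 ± 0.271 (95% interval -1.07 to 0.12, adjusted p = 0.30). The rise of Klf2 in B6 was therefore not shown to differ from the change in SLE123. In limma 0 of the 9 genes were called, and voom called 0, while 1.27% of all tested genes were called higher and 2.38% lower. In that fit 3 had an unadjusted p under 0.05, S1pr1 at 0.66, Tcf7 at 0.48 and Foxo1 at 0.47, and their adjusted p-values in limma were 0.177, 0.157 and 0.196. The other differences were 0.63 (Ccr7), 0.58 (Satb1), 0.19 (Lef1), 0.04 (Bach2) and -0.03 (Foxp1), and their median over the 9 genes was 0.47. Single untreated SLE123 mice decided these calls. Without mouse 3 Klf2 was called (-0.75, adjusted p = 0.0266), and without mouse 1 Tcf7 (0.64, adjusted p = 0.0116) and S1pr1 (0.90, adjusted p = 0.017) were called.

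The comparison of untreated strains asked how the CD4+ T cells of the lupus-prone strain differ before any treatment. All 9 genes were lower in each untreated SLE123 mouse than in each untreated B6 mouse, and 8 of them were called lower, as were 20.1% of all tested genes (22.8% were called higher). Satb1 showed the largest difference, with 180, 169 and 162 FPKM in B6 against 63.6, 58.7 and 32.0 FPKM in SLE123. Its mean was 69.8% lower (log2 fold change -1.77 ± 0.238, adjusted p = 0.00124). For the lymph-node receptor Ccr7 the mean fell from 246 ± 4.85 FPKM (SD, n = 3) to 92.8 ± 34.1 FPKM (log2 fold change -1.48, adjusted p = 0.00469). The untreated SLE123 mouse 3, at 53.4 FPKM, widened that spread, and the other untreated SLE123 mice were both above 110 FPKM.

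Lef1 was at 163, 154 and 132 FPKM in untreated B6 and at 77.0, 85.2 and 38.6 FPKM in untreated SLE123, a log2 fold change of -1.22 ± 0.277 (adjusted p = 0.011). Its partner Tcf7 differed less, at -0.80 ± 0.183 (adjusted p = 0.0115), and stayed the most abundant of the 9 genes in SLE123. Bach2, the repressor of effector genes, was at 15.6, 17.4 and 13.1 FPKM in B6 and at 7.66, 6.39 and 4.17 FPKM in SLE123. The groups were clearly separate, with a log2 fold change of -1.24 ± 0.197 (adjusted p = 0.00258). S1pr1 was lower by a log2 fold change of -1.12 ± 0.233 (adjusted p = 0.00781). Foxo1 was at 81.5 to 88.2 FPKM in B6 and 33.4 to 49.5 FPKM in SLE123 (log2 fold change -0.97, adjusted p = 0.00222). Foxp1, the quiescence factor, was at 45.4 to 50.8 FPKM against 24.3 to 31.9 FPKM (log2 fold change -0.72, adjusted p = 0.00272). Klf2 alone did not pass: its values did not overlap, yet its log2 fold change was -0.60 ± 0.234 with an adjusted p of 0.0746. Without the untreated SLE123 mouse 2, the one with the highest Klf2 of its group, the value was -0.84 with an adjusted p of 0.0125, and without mouse 3 it was -0.33 with an adjusted p of 0.0977. In the full group it passed when rescaled to TPM (-0.98, adjusted p = 0.00885) or with all 12 mice in 1 fit (adjusted p = 0.0204).

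The median of the 9 log2 fold changes was -1.12, against -0.025 over all tested genes. Without the untreated SLE123 mouse 3, again 8 were called and the median was -0.85. With each mouse left out in turn, Ccr7 lay between -1.66 and -1.12, Lef1 between -1.44 and -0.87 and Satb1 between -1.95 and -1.46. S1pr1 lay between -1.36 and -0.85, Bach2 between -1.40 and -1.03 and Tcf7 between -0.97 and -0.63. The ranges were -1.07 to -0.79 for Foxo1 and -0.79 to -0.60 for Foxp1. Tcf7 missed the threshold without the untreated B6 mouse 3 (adjusted p = 0.0518) or mouse 4 (adjusted p = 0.0513), and Lef1 with no filter on low genes (adjusted p = 0.0509). An exact two-sided permutation test over 3 against 3 mice cannot give a p below 0.1, and gave 0.1 for each of the 9 genes.

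Among treated mice the strains differed in the same direction, and all 9 genes were called lower in SLE123, as were 22.5% of all tested genes (29.6% were called higher). Klf2, which had risen in treated B6, was now among the larger differences: 366, 338 and 357 FPKM in B6 against 185, 158 and 160 FPKM in SLE123. Its mean was 52.5% lower (log2 fold change -1.07 ± 0.0692, adjusted p = 6.39e-05). Satb1 was at 161, 146 and 163 FPKM against 86.3, 62.4 and 58.4 FPKM (log2 fold change -1.19 ± 0.141, adjusted p = 0.000586). Bach2 had the same log2 fold change of -1.19 (adjusted p = 0.000215), with 16.3 to 17.8 FPKM against 5.99 to 8.31 FPKM. Lef1 followed at -1.03 (adjusted p = 0.000935), Ccr7 at -0.85 (adjusted p = 0.000614) and Foxp1 at -0.75 (adjusted p = 0.000145). The smallest differences were those of Foxo1 at -0.50 (adjusted p = 0.0135), S1pr1 at -0.46 (adjusted p = 0.00873) and Tcf7 at -0.32 (adjusted p = 0.00155), all in limma.

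The median of the 9 genes was -0.85, against 0.028 over all tested genes. In the treated SLE123 group mouse 1, which carried the liver transcripts, had the highest level of each of the 9 genes. Without it all 9 were again called, with a median of -0.96. With all 12 mice in 1 fit the adjusted p was 0.0777 for Tcf7 and 0.0882 for S1pr1, and with no filter it was 0.0595 for Foxo1. The strain comparisons share no mice with each other, but each shares its mice with the treatment comparisons.

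**Figure D3:**
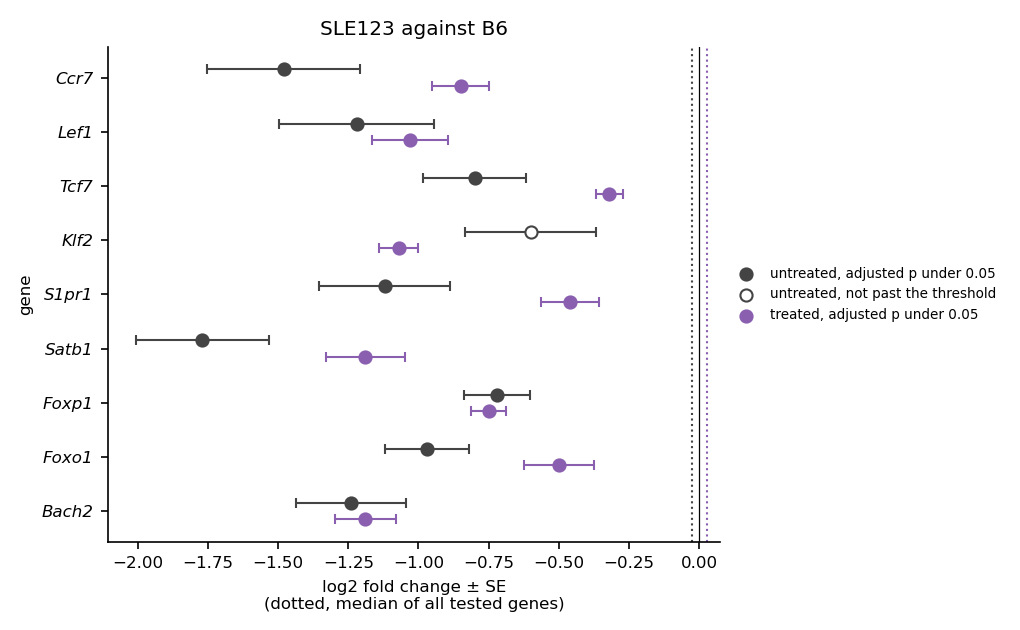
Log2 fold change of SLE123 against B6 (horizontal axis, on log2(FPKM + 1), bars ± SE) among untreated and among treated mice, filled where the adjusted p was under 0.05. All points lie left of 0, from -0.32 (Tcf7, treated) to -1.77 (Satb1, untreated), and only Klf2 among untreated mice is open.

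Markers of other cell types differed between the strains as well, not always in the same direction among untreated and treated mice. Of all tested genes 22.8% were called higher and 20.1% lower among untreated mice, and 29.6% and 22.5% among treated mice. In untreated SLE123 all 7 tested of 9 B cell markers and 6 of 6 plasma cell markers were called higher, and no gene of either list was at 0 in every mouse of a group. The summed B cell level was 64.6 to 240 FPKM in untreated and 38.3 to 58.2 FPKM in treated SLE123, against 6.5 to 7.94 FPKM in untreated and 27.2 to 35.8 FPKM in treated B6. The plasma cell sums were 11200 to 27800 FPKM and 5410 to 11000 FPKM in SLE123 against 434 to 586 FPKM and 597 to 897 FPKM in B6. Immunoglobulin genes held 5.06% to 12.2% of all fragments in untreated and 2.51% to 5.38% in treated SLE123, against at most 0.336% in B6. With immunoglobulin genes left out of the scaling total, 8 of the 9 genes were called lower among untreated mice with a median of -1.03, and 9 among treated mice with a median of -0.75. Regulatory T cell markers were also higher in SLE123, with 7 of 8 called in either comparison and sums of 317 to 382 FPKM against 85.1 to 127 FPKM in B6. The summed T cell markers were 3650 to 5030 FPKM in untreated SLE123, with 1 of 12 called lower, Thy1, and 4500 to 4550 FPKM in treated SLE123, with 5 called higher and 2 lower. In untreated SLE123 6 of 6 basophil, mast cell and eosinophil, 4 of 4 neutrophil, 5 of 6 erythroid and platelet and 3 of 5 monocyte, macrophage and dendritic cell markers were also higher, 5 of 5 liver markers were lower, and of 6 CD8 and natural killer cell markers 3 were lower and 1 higher. In treated SLE123 all 6 plasma cell markers were higher, but of 7 B cell markers 3 were higher and 3 lower. There 3 of 6 basophil, mast cell and eosinophil markers were higher, 4 of 5 monocyte, macrophage and dendritic cell and 2 of 6 erythroid and platelet markers were lower, 5 of 6 CD8 and natural killer cell markers were lower and 1 higher, and limma called 0 of 4 neutrophil markers (0 at an unadjusted p under 0.05, and 0 by voom) and 0 of 5 liver markers (4 at an unadjusted p under 0.05, and 5 by voom). The part of these cells in the levels of the 9 genes was not tested.

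**Figure D4:**
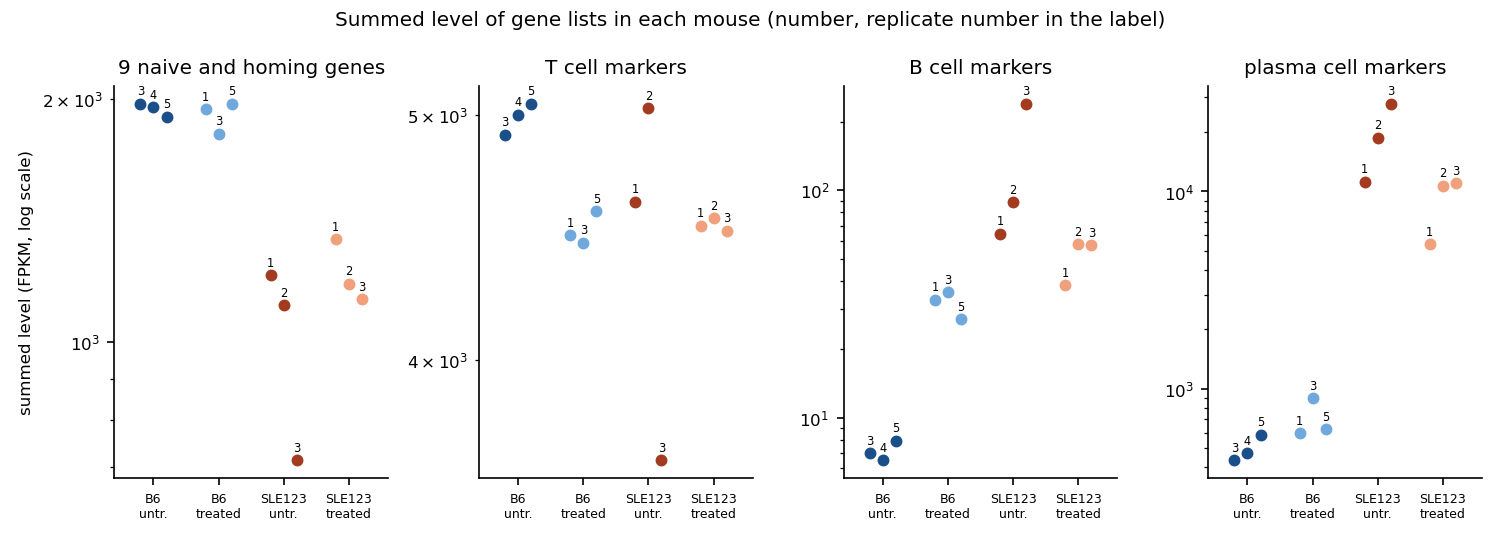
Summed level (FPKM, log scale) of the 9 genes and of T cell, B cell and plasma cell markers in each mouse, with the replicate number of each mouse. The untreated SLE123 mouse 3 has the lowest sum of the 9 genes (713 FPKM) and the highest B cell (240 FPKM) and plasma cell (27800 FPKM) sums.

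Treated B6 mice also carried more transcripts of other blood cells than untreated ones. Of all tested genes 8.74% were called higher. Called higher were 6 of 7 tested B cell markers, 4 of 5 monocyte, macrophage and dendritic cell markers, 4 of 4 neutrophil markers, 4 of 6 basophil, mast cell and eosinophil markers, 4 of 6 erythroid and platelet markers, 3 of 6 CD8 and natural killer cell markers and 2 of 6 plasma cell markers. The T cell sum in these mice was 4450 to 4580 FPKM (4910 to 5050 FPKM untreated). Among 12 T cell markers 5 were called lower and 0 higher, against 6.12% of all tested genes lower. Plasma cell markers summed to 597 to 897 FPKM (434 to 586 FPKM untreated) and B cell markers to 27.2 to 35.8 FPKM (6.5 to 7.94 FPKM untreated). The monocyte, macrophage and dendritic cell markers reached 43.4 to 118 FPKM (8.49 to 15.1 FPKM untreated), neutrophil markers 12.7 to 16.3 FPKM (0.431 to 1.44 FPKM untreated) and CD8 and natural killer markers 142 to 174 FPKM (91.2 to 93.0 FPKM untreated). Basophil, mast cell and eosinophil markers were at 15.4 to 23.6 FPKM (3.72 to 4.12 FPKM untreated), and erythroid and platelet markers at 16.0 to 18.7 FPKM (2.03 to 2.77 FPKM untreated). The part of these cells in the rise of Klf2 and the falls of Ccr7 and Tcf7 was not tested.

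The other genes of the naive program gave a wider view. Of 20 further naive T cell genes, 15 were called lower and 0 higher in untreated SLE123, with a median of -0.80 on the log2 scale, and 17 lower and 0 higher among treated mice, with a median of -0.52. Of all tested genes 20.1% were called lower and 22.8% higher between untreated strains, and 22.5% and 29.6% between treated ones. The interleukin-7 receptor gene Il7r, which supports survival of naive T cells, was at 211 to 253 FPKM in untreated B6 and at 93.5 to 163 FPKM in untreated SLE123 (log2 fold change -0.87 ± 0.195, adjusted p = 0.0105). Among treated mice Il7r differed by -1.04 (adjusted p = 0.000886). Als2cl (-1.99), Rapgef4 (-1.81) and the actin crosslinker gene Actn1 (-1.68) fell furthest between untreated strains, and Dapl1 (-1.59), Als2cl (-1.40) and the PI3K inhibitor gene Pik3ip1 (-1.27) between treated ones. Treatment in B6 moved 2 of the 20 up, Dapl1 (0.60) and Ms4a4b (0.23), and 2 down, Rapgef4 (-0.41) and Actn1 (-0.14), which is near the 8.74% and 6.12% of all tested genes. Il7r did not pass in B6 (0.32, adjusted p = 0.111).

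Genes of egress and homing were counted next. Treatment in B6 raised 7 of 20 and lowered 1, with a median of 0.12, against 8.74% and 6.12% of all tested genes. The sphingosine 1-phosphate receptor genes S1pr5 (0.92, from a level of at most 0.199 FPKM) and S1pr4 (0.36 ± 0.0457, adjusted p = 0.00519) rose, as did the bone marrow homing receptor Cxcr4 (0.63, adjusted p = 0.00431), and the follicle homing receptor Cxcr5 fell (-0.68, adjusted p = 0.0454). Cd69, whose product holds S1PR1 inside the cell, was at 49.6 to 63.9 FPKM untreated and 67.0 to 89.0 FPKM treated in B6 and did not pass (0.45, adjusted p = 0.0544). In untreated SLE123 4 of the 20 were called higher and 6 lower than in untreated B6, with Cxcr5 (1.83) and the sphingosine kinase gene Sphk1 (1.26) on the higher side, against 22.8% and 20.1% of all tested genes, so these counts do not set the list apart. In treated SLE123 4 were higher, with Cxcr5 at 2.56, and 14 lower, with Cd69 at -0.69 (adjusted p = 0.00151) and S1pr4 at -0.57, against 29.6% and 22.5%. Cd69 (-0.12) and S1pr4 (-0.33, adjusted p = 0.156) did not pass between untreated strains. Treated B6 mice also had 3 of 6 CD8 and natural killer cell and 6 of 7 B cell markers called higher, and 0 lower. Such markers differed between the strains too, and the part of other cells in these egress and homing genes was not tested.

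Targets of FOXO1 and KLF2 were counted without the 3 that belong to the 9 genes. Treatment in B6 raised 4 of the 13 and lowered 0, with a median of 0.16, against 8.74% and 6.12% of all tested genes. The insulin receptor substrate gene Irs2 (0.37, adjusted p = 0.0265) and the antiproliferative gene Tob1 (0.33, adjusted p = 0.0102) led. In untreated SLE123 7 of the 13 were lower and 2 higher, against 20.1% and 22.8% of all tested genes, with the inhibitory receptor Ctla4 at 2.31. In treated SLE123 9 were lower and 3 higher, against 22.5% and 29.6%, with Ctla4 at 2.34 and Pik3ip1 at -1.27. Of 12 tested partners of TCF1 and LEF1, the coactivator gene Bcl9l was called in B6 treatment (0.33, adjusted p = 0.00566), and 5 were lower and 1 higher between untreated strains. The plakoglobin gene Jup (-1.15), the corepressor gene Tle1 (-1.09) and Bcl9l (-1.06) fell furthest there, and the same 3 led the 7 that were lower among treated mice (-1.23, -1.18 and -0.85), where 2 were higher. The shares of all tested genes for these partner counts are those given for the targets.

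Relatives of the 9 genes within their families were also counted. Of 18 tested relatives 6 were called higher and 0 lower with treatment in B6, against 8.74% and 6.12% of all tested genes. Klf6, at 53.6 to 69.3 FPKM untreated and 92.6 to 111 FPKM treated, rose (0.77 ± 0.107, adjusted p = 0.00701), next to S1pr5 and the chemokine receptor gene Ccr6 (0.57, adjusted p = 0.015). Between untreated strains 8 of the 18 were lower and 5 higher, and between treated strains 9 were lower and 4 higher, against 20.1% and 22.8%, and 22.5% and 29.6%, of all tested genes. On the higher side stood Foxp3, the factor that defines regulatory T cells (1.28 untreated and 1.37 treated), the sphingosine 1-phosphate receptor gene S1pr2 (1.65 and 1.23) and the effector homing receptor Cxcr3 (1.16 untreated). Klf6 was lower among treated mice at -1.22 (adjusted p = 6.31e-05). The part of other cell types in the relatives, as in the naive genes, targets and partners, was not tested.

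Effector and memory genes, which naive cells keep low, stood on the other side of the same comparisons. In untreated SLE123 23 of 28 were called higher and 0 lower, with a median of 1.12, led by the inhibitory receptor Pdcd1 (3.40), S100a4 (2.42) and S100a6 (2.41). Of all tested genes 22.8% were called higher and 20.1% lower. Prdm1, the gene that BACH2 represses, was at 9.45 to 15.8 FPKM in untreated SLE123 and at 2.23 to 2.80 FPKM in untreated B6 (1.81 ± 0.19, adjusted p = 0.000394). Prdm1 is also a gene of plasma cells, its highest value was that of the untreated SLE123 mouse 3 with the highest plasma cell sum (27800 FPKM), and the part of plasma cells in it was not tested. Among treated mice 21 were higher and 3 lower, against 29.6% and 22.5% of all tested genes. Pdcd1 (3.19), the transcription factor gene Maf (2.34) and the costimulator Icos (1.75) led, and Prdm1 differed by 1.51 (adjusted p = 0.00042). In B6 treatment raised 15 of 28 and lowered 0, with a median of 0.41, against 8.74% and 6.12% of all tested genes. The galectin genes Lgals3 (1.82) and Lgals1 (1.30) and the killer cell receptor gene Klrg1 (1.65) moved most, and Prdm1 did not pass (0.42, adjusted p = 0.0613). Treated B6 mice also had 3 of 6 CD8 and natural killer cell markers and 4 of 5 monocyte, macrophage and dendritic cell markers called higher. The part of these cells in the 15 genes was not tested. The list was chosen with earlier results of these mice known, so these counts are a description.

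**Figure D5:**
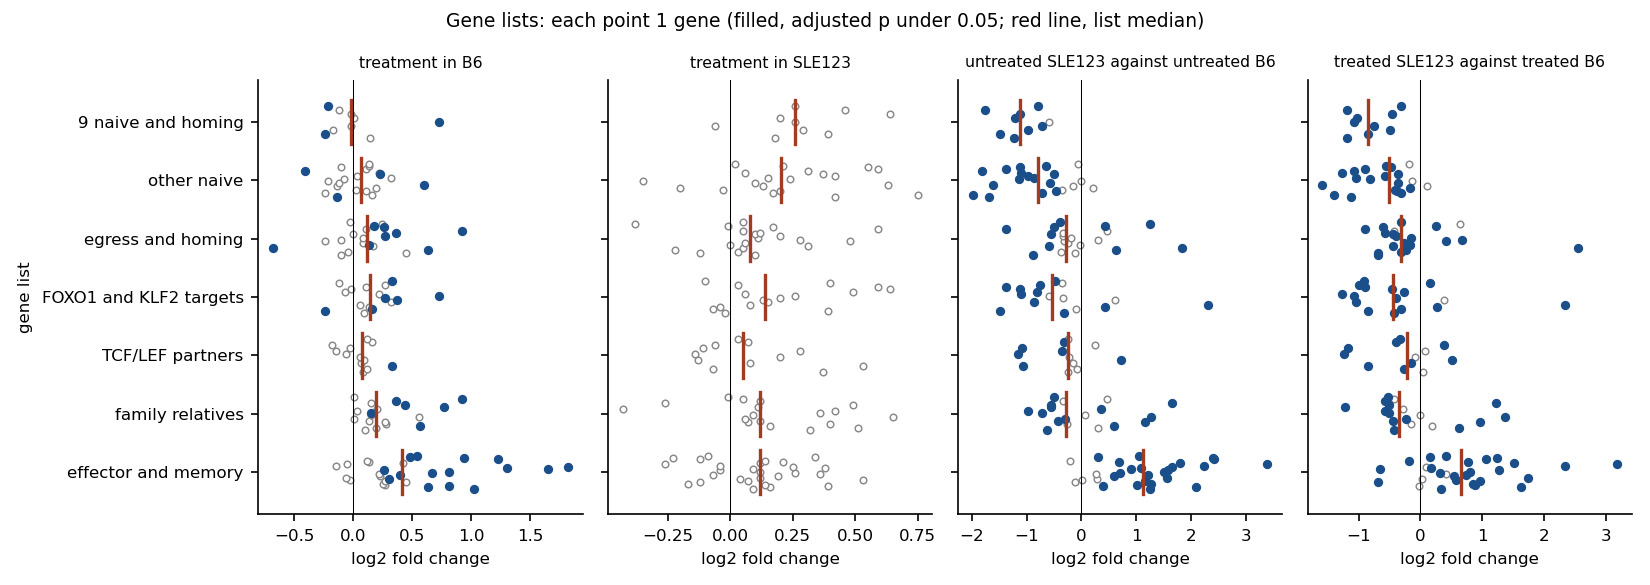
Log2 fold change (horizontal axis, on log2(FPKM + 1)) of each gene of 7 lists in the 4 comparisons of groups, filled where the adjusted p was under 0.05, with the list median as a red line. Between the strains the medians of the 9 genes (-1.12 and -0.85) and of the effector and memory genes (1.12 and 0.66) lie on opposite sides of 0.

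With treatment in SLE123 limma called 0 genes of these 6 lists. At an unadjusted p under 0.05 there were 5 of 20 naive, 1 of 20 egress and homing, 1 of 13 target, 3 of 12 partner, 5 of 18 relative and 6 of 28 effector and memory genes, and voom also called 0. The changes of Il7r (0.15), Cd69 (-0.12), S1pr4 (0.12) and Prdm1 (0.12) did not pass. Medians of the lists lay between 0.05 and 0.20. In the interaction limma called Cxcr4 and Tob1 lower and 6 of 28 effector and memory genes lower, and 0 naive, partner and relative genes, of which 5, 1 and 4 had an unadjusted p under 0.05 and voom called 0. The shares over all tested genes were 2.38% lower and 1.27% higher. Il7r (-0.17), Cd69 (-0.58), S1pr4 (-0.24) and Prdm1 (-0.30) did not pass there, with adjusted p-values of 0.0984 for Cd69 and above for the others.

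The genes whose levels moved most like those of the 9 across the 12 mice were looked for among 7777 protein-coding genes that averaged 5 FPKM or more, by the root mean square difference of centred log2(FPKM + 1). Klf2 was nearest to Klf6 (0.164) and the vesicular nucleotide transporter gene Slc17a9 (0.173), the largest distances of any of the 9 to its nearest gene. Tcf7 was nearest to Fam102a (0.0599) and Evl (0.0719), and Foxp1 to Hsdl1 (0.0538) and Arhgap15 (0.07). Ccr7 had as its nearest genes Trat1 (0.131) and, among the 9 themselves, Lef1 (0.134). The nearest to Lef1 were Tbxa2r (0.112) and Pik3ip1 (0.132). Satb1 moved most like Actn1 (0.0925) and Galnt10 (0.115), S1pr1 like Treml2 (0.0998) and Tanc1 (0.121), Foxo1 like Tgfbr3 (0.074) and Pecam1 (0.0838), and Bach2 like Cnn3 (0.109) and Arl5c (0.111). Within the 9 genes the closest pairs were Ccr7 with Lef1 and Tcf7 with Foxo1, at 0.134 each, and the farthest was Tcf7 with Satb1 at 0.486. All these distances include the strain difference that the genes share.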

How the data were processed

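Strain came from the strain labels, treatment from the treatment labels, which only treated samples carry, and the replicate number from the titles, whose stems match these groups. The authors deposited 1 FPKM value per Ensembl gene and library, and per the labels reads were called with CASAVA 1.8 and mapped with STAR to mm10; the counting program and its use of strand are not given in the sources used here. The authors tested pairs of conditions with DESeq2, which was not run. Symbols and coordinates came from GENCODE M21. Whole fragments were recovered for 100% of the 23230 genes above 0 (tolerance 0.001 fragments).

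Values were transformed as log2(FPKM + 1), which understates changes of low genes. Genes averaging 0.5 FPKM or more over the mice (13115) were tested with limma 3.58.1 in R 4.3.3 (eBayes with a trend, Benjamini-Hochberg over all tested genes, threshold 0.05), on the 6 mice of each comparison, and on 12 for the interaction. The fits were also run on simulated data. There each gene had the same spread in all groups, unlike in these mice, so no support is drawn from that run. With 3 fragments as the smallest usable count on 2000 bases, the floor was 0.0634 to 0.111 FPKM, which covers counting error only. The titles alone tell replicates apart.

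The 9 genes, the gene lists and the tests were chosen with earlier results of these data known. Named genes are the 9, with Il7r, Cd69, S1pr4 and Prdm1 in each comparison (another gene of that rule is not reported here), up to 3 called genes with the largest change per list and comparison, and the 2 nearest in pattern to each of the 9. Other settings tried were 0.1 as pseudocount, a filter at 1 FPKM or none, rescaling to TPM with or without immunoglobulin genes, centring on the median log-ratio or on T cell markers, voom on recovered fragments, all 12 mice in 1 fit, a block for the replicate number, and leaving out each mouse.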

Additional observations from a re-analysis of the deposited data

Results flagged for a closer look

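Among the genes named beside the 9, 7 were called in the interaction test in limma (effect in SLE123 minus that in B6, log2 scale, 12 mice). They had been named for large changes with treatment in B6, between untreated strains or in this test, and the interaction reuses those values. That choice by itself favours differences here, so these 7 are a description. Of the homing and target genes these were Cxcr4, which retains cells in bone marrow, at -0.86 ± 0.109 (SE, adjusted p = 0.00283), and Tob1 at -0.44 ± 0.0898 (adjusted p = 0.0257). Cxcr4 was at 58.7 to 72.4 FPKM in untreated and 98.3 to 106 FPKM in treated B6, and at 100 to 108 FPKM in untreated and 84.1 to 93.0 FPKM in treated SLE123. Of the effector and memory genes they were S100a4 at -1.35 (adjusted p = 0.003), S100a6 at -1.17 (adjusted p = 0.00404), Lgals1 at -0.92 (adjusted p = 0.00131), Lgals3 at -1.57 (adjusted p = 0.00642) and Klrg1 at -1.56 (adjusted p = 0.00683). In the same test 4 of 7 B cell, 3 of 4 neutrophil, 6 of 6 basophil, mast cell and eosinophil, and 4 of 5 monocyte, macrophage and dendritic cell markers were called lower. So were 5 of 6 erythroid and platelet markers and 2 of 6 CD8 and natural killer cell markers, Ncr1 and Nkg7. The shares over all tested genes were 2.38% lower and 1.27% higher. The part of these cells in the 7 genes was not tested. None of the 9 naive and homing genes was called in this test.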

How the results depend on the processing

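The 8 genes called between untreated strains (7 to 9 under the alternatives), the 9 between treated strains (7 to 9) and the 0 in SLE123 treatment (0 in each alternative) moved little. With treatment in B6 the 3 calls became 1 with all 12 mice in 1 fit, Klf2, and 1 to 3 with a mouse left out. In the interaction the 0 calls became 0 to 2 with a mouse left out, and stayed 0 in the other alternatives. Changes near 0 turned sign. Rescaling to TPM gave -0.0022 for Lef1 in B6, 0.13 for Foxp1 in SLE123 and 0.16 for Foxp1 in the interaction. T cell marker centring gave 0.09 for S1pr1 and 0.09 for Foxp1 in B6 and -0.15 for Bach2 in the interaction, where median centring gave -0.01. Leaving out a mouse gave ranges of -0.08 to 0.07 (Lef1), -0.07 to 0.06 (S1pr1) and -0.07 to 0.01 (Foxp1) in B6, of -0.15 to 0.41 (Lef1), -0.01 to 0.5 (Klf2), -0.18 to 0.01 (Foxp1) and -0.03 to 0.34 (Bach2) in SLE123, and of -0.16 to 0.4 (Lef1), -0.16 to 0.03 (Foxp1) and -0.17 to 0.2 (Bach2) in the interaction. Rescaling to TPM moved the median of all genes to -0.343 between untreated strains, -0.123 between treated strains and 0.197 in SLE123 treatment, and T cell marker centring to 0.153 between untreated strains. The cause was not tested.

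Correlations of same-numbered deviations had no common sign, which does not settle whether replicate numbers pair the mice. They were -0.14 and -0.094 in B6, 0.137, -0.161 and 0.266 in SLE123, and 0.065 and 0.143 between treated strains. In fits with a replicate block, limma called 0 of the 9 genes in B6 (Klf2 0.69, adjusted p = 0.0841; 0 genes over all, 2466 at an unadjusted p under 0.05), 0 in SLE123, 8 between treated strains and 0 in the interaction, where Bach2 was at -0.01. For the untreated strains alone, no paired analysis was possible because untreated SLE123 and untreated B6 mice share only number 3.

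With 3 mice a group, and untreated SLE123 mice as far apart as 38.6 and 85.2 FPKM for Lef1, small changes in SLE123 were not detectable.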
